A study of Danio rerio with 6 samples.

Results

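The genes described here encode subunits of RNA polymerase I and proteins that build ribosomes. They were chosen by symbol: names that begin with utp, nop, nol and a digit, polr1, wdr12, imp3, imp4, rrp or ebna1bp, together with fbl, ncl, npm1a, npm1b, dkc1, nhp2, gar1, bop1, pes, gnl3, bms1, tsr1, rcl1, emg1, ddx21 and brix1. This gave 52 genes with 53 RefSeq transcripts, of 14315 genes and 14740 transcripts that could be paired with a symbol and 15455 transcripts in all. No transcript was paired with brix1 or with the RNA polymerase I subunit genes polr1a and polr1g, and these were not analysed here. All 52 genes passed the filter on low counts.

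RNAseq was performed on zebrafish (Danio rerio) at 72 hpf, with 3 wild-type and 3 double homozygous hnrnpul1/1l mutant pools of 8 embryos each and the tail removed for genotyping. Hnrnpul1 and Hnrnpul1l are paralogous RNA-binding proteins of the hnRNP family. The study made both mutations with CRISPR-Cas9 as frameshifting insertions and names hnrnpul1 ca54 and hnrnpul1l ca52 as the alleles of its mutants in general. Its text describes the sequenced mutants as maternal zygotic for hnrnpul1l and zygotic for hnrnpul1, and the wild types as coming from an incross of hnrnpul1l heterozygotes, while its methods speak of wild-type siblings. By the description in its text the mothers differed: homozygous for the hnrnpul1l mutation for mutants, heterozygous for wild types. A difference in parents and a difference in genotype then cannot be told apart. Whether the pools of a genotype came from separate clutches is not given, so the tests measure the spread between these pools.

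Ribosomal RNA is transcribed in the nucleolus by RNA polymerase I as a long precursor. Small nucleolar RNPs (snoRNPs) of the box C/D and box H/ACA classes guide its 2′-O-methylation and pseudouridylation, the small subunit processome cuts out and folds the 18S part, and a separate set of factors assembles the large subunit. Demand for these factors is high in growing and dividing cells. In zebrafish and in human, loss of single members is known to impair craniofacial cartilage, blood and digestive organs.

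Estimated counts per transcript were scaled between libraries and are given as CPM (counts-per-million of the scaled library total). The difference between genotypes is given as a log2 ratio, the fitted log2 of the mutant over the wild-type level, with its standard error (SE). The libraries held 40891309 to 62580215 counts, so that before scaling 1 CPM stands for 40.9 to 62.6 counts. The lowest count of any of the 52 genes in any pool was 59. The median coefficient of variation between pools of a genotype was 17.2% in wild types and 22.4% in mutants over the 52 genes, so precision was limited by the differences between pools rather than by depth. Levels are not compared between genes, because transcript lengths were not used here. The mutated gene hnrnpul1 had 127, 122 and 118 CPM in wild-type pools 1, 2 and 3 and 47.7, 45.6 and 22.1 CPM in mutant pools 1, 2 and 3. All of its mutant values lay below the wild types, in the direction of the labels, with a log2 ratio of -1.67 (SE 0.30). Its adjusted p was 0.328 in edgeR and 1.79e-04 in DESeq2, so that it was called in the latter only. No transcript was paired with hnrnpul1l.

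The question for these genes is whether the hnrnpul1/1l mutants hold the RNAs of the ribosome assembly machinery at another level than wild types. No gene passed the test. Among the 52, 34 had a higher and 18 a lower fitted level in mutants, with a median log2 ratio of mutants to wild types of 0.15, where 49.1% of the 13553 transcripts tested were higher and the median was -0.01. The factors of the large subunit and the subunits of RNA polymerase I leaned highest, with median log2 ratios of 0.30 over 12 genes and 0.42 over 6 genes. The genes for the core snoRNP proteins other than nhp2, for nucleolin and for nucleophosmin had log2 ratios from -0.12 to 0.13. With standard errors of 0.18 to 0.71, these are not set apart from the median of 0.15. Under scaling by totals fbl, nop56, nop58 and npm1b turned below 0. When libraries were scaled by their totals alone, the median of all transcripts moved by -0.12, the median of the 52 genes became 0.02 and 27 of them were higher, so the lean is one relative to other transcripts.

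Calls were made with edgeR's quasi-likelihood test at a p below 0.05 after Benjamini-Hochberg adjustment over all transcripts tested. None of the 52 genes was called, against 0% of all transcripts, and the smallest adjusted p among them was 0.522. DESeq2 also called none of them, against 1.39% of the transcripts to which it gave an adjusted p. At an unadjusted p below 0.05 in edgeR, 5 of the 52 genes were higher, or 9.62%, where the share over all transcripts was 4.18%. These were bms1, rrp9, wdr12, nop2 and emg1. None was lower at that threshold, where the share over all transcripts was 4.61%. Under scaling by totals 1 gene was higher and 1 lower at that threshold, and all transcripts split into 331 higher and 1042 lower in place of 566 and 625. The 5 genes became 0 without wild-type pool 2 or without wild-type pool 3, and 2 without mutant pool 1. Over all transcripts the number higher also fell in these 3 settings, from 566 to 281, 448 and 371.

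A count that needs no model gave a weaker contrast with the background. For 5 genes every mutant pool lay above every wild-type pool, or 9.62% of the 52 against 7.71% of all transcripts, which is near the background. They were bms1, rrp9, wdr12, pes and polr1c. For 2 genes, rrp36 and nol10, all mutant pools were lower than all wild types, or 3.85% against 9.08% of all transcripts. Scaling by totals gave 2 genes above and 3 below, but the shares over all transcripts under that scaling are not given here. With 3 pools of each genotype, 0.1 is the smallest p that an exact two-sided permutation test can reach for one gene.

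**Figure D1:**
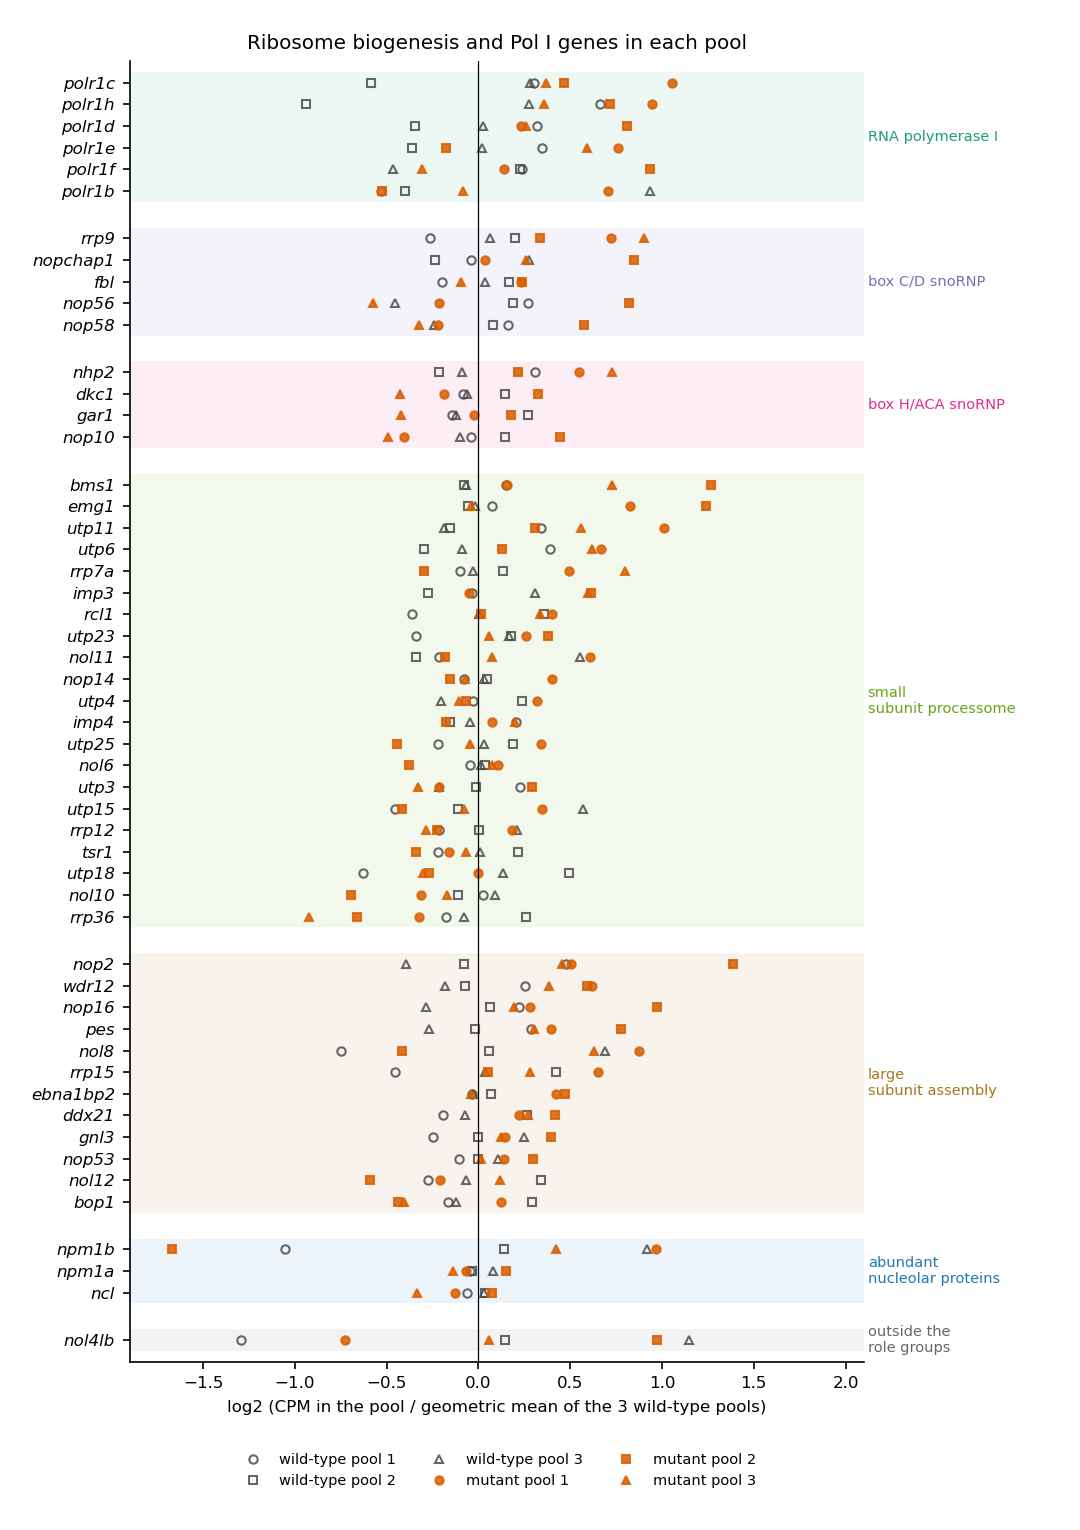
Each row is a gene and each symbol a pool; the horizontal axis is the log2 ratio of the CPM in that pool to the geometric mean of the 3 wild-type pools, open grey for wild type and filled orange for mutant, with the genes grouped by role. Mutant symbols sit to the right of all wild-type symbols for bms1, rrp9, wdr12, pes and polr1c and to the left for rrp36 and nol10, and overlap for the other genes.

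RNA polymerase I is the enzyme that transcribes the ribosomal RNA precursor, and 6 of its subunit genes were measured. The median log2 ratio was 0.42, 5 of the 6 were above 0, and none passed the test. The gene polr1c encodes a subunit that RNA polymerases I and III share. Wild types had 12.9, 6.94 and 12.7 CPM and mutants 21.6, 14.4 and 13.5 CPM. The lowest mutant pool lay just above the highest wild-type pool, so the groups did not overlap but nearly touched. Its log2 ratio was 0.61 (SE 0.36, adjusted p = 0.697).

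The gene polr1d encodes the partner of Polr1c in both enzymes. Its values were 18.8, 11.9 and 15.4 CPM in wild types and 17.7, 26.4 and 18.1 CPM in mutants, so that 2 mutant pools fell inside the wild-type range. With a log2 ratio of 0.43 (SE 0.30, adjusted p = 0.746), it did not pass the test. In human, mutations of the genes for these 2 subunits are known from Treacher Collins syndrome, a disorder of the facial skeleton. The gene polr1b encodes the second largest subunit, part of the catalytic core. It had 4.34, 4.76 and 11.99 CPM in wild types and 10.3, 4.37 and 5.93 CPM in mutants, and both genotypes covered the same range. The fit gave a log2 ratio of -0.04 (SE 0.54), of uncertain sign.

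Polr1e is a peripheral subunit that acts in initiation and elongation, and its gene had 20.3, 12.4 and 16.2 CPM in wild types and 27.0, 14.1 and 24.1 CPM in mutants. Mutant pool 2 lay within the wild-type range and the other mutant pools above it. This amounts to a log2 ratio of 0.42 (SE 0.33, adjusted p = 0.789). The gene polr1f encodes a stalk subunit that contacts the initiation factor Rrn3. Its 40.4, 40.0 and 24.8 CPM in wild types stood against 37.7, 65.4 and 27.7 CPM in mutants, and the log2 ratio of 0.31 (SE 0.36) became -0.07 without mutant pool 2. For polr1h, a small subunit with a role in RNA cleavage, wild types had 12.1, 3.99 and 9.26 CPM and mutants 14.7, 12.6 and 9.82 CPM. Wild-type pool 2 was the lowest of all pools for polr1c, polr1d, polr1e and polr1h. The log2 ratio of polr1h was 0.55 (SE 0.45, adjusted p = 0.797). Without wild-type pool 2 the ratios were 0.37 for polr1c, 0.28 for polr1d, 0.25 for polr1e, 0.21 for polr1h, 0.42 for polr1f and -0.25 for polr1b, and the median of the 6 genes was 0.27 in place of 0.42.

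The lists of the pathway around the enzyme showed no lean of this kind. Over 10 tested genes for RNA polymerase I initiation factors and the Myc family, 6 were above 0 and the median was 0.02. The list means of mutant pools 1, 2 and 3 were -0.03, 0.04 and -0.19. At an unadjusted p below 0.05 in edgeR 1 gene was lower, where the share over all transcripts was 4.61%. That gene was max, the partner of Myc proteins, with 281, 282 and 223 CPM in wild types and 168, 204 and 156 CPM in mutants. Its log2 ratio was -0.57 (SE 0.20, adjusted p = 0.499). For 2 of the 10 genes, max and mycb, all mutant pools lay below the wild types (20% against 9.08% of all transcripts). The gene mycb had 33.0, 38.5 and 30.5 CPM in wild types and 28.0, 26.4 and 29.9 CPM in mutants. Its log2 ratio was -0.27 (SE 0.21, adjusted p = 0.780). The gene ubtf, which encodes the factor that coats active ribosomal DNA, had 167, 223 and 205 CPM in wild types and 143, 181 and 124 CPM in mutants. Its pools overlapped, with a log2 ratio of -0.41 (SE 0.22, adjusted p = 0.648). Among the 6 genes above 0, mycn was highest at 0.38 (SE 0.28, adjusted p = 0.768), and ubtfl was at 0.005 (SE 0.23). Of 11 tested subunit genes of RNA polymerase III, which transcribes 5S and transfer RNA, 5 were above 0, the median was -0.04, and none reached an unadjusted p below 0.05. For polr3f alone the mutant pools lay above the wild types, or 9.09% of the list against 7.71% of all transcripts. It had 16.4, 15.8 and 17.97 CPM in mutants against 15.13, 7.69 and 12.2 CPM in wild types. The log2 ratio was 0.52 (SE 0.32, adjusted p = 0.723). The genes max, mycb, ubtf, mycn, ubtfl and polr3f were named after their values were seen.

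**Figure D2:**
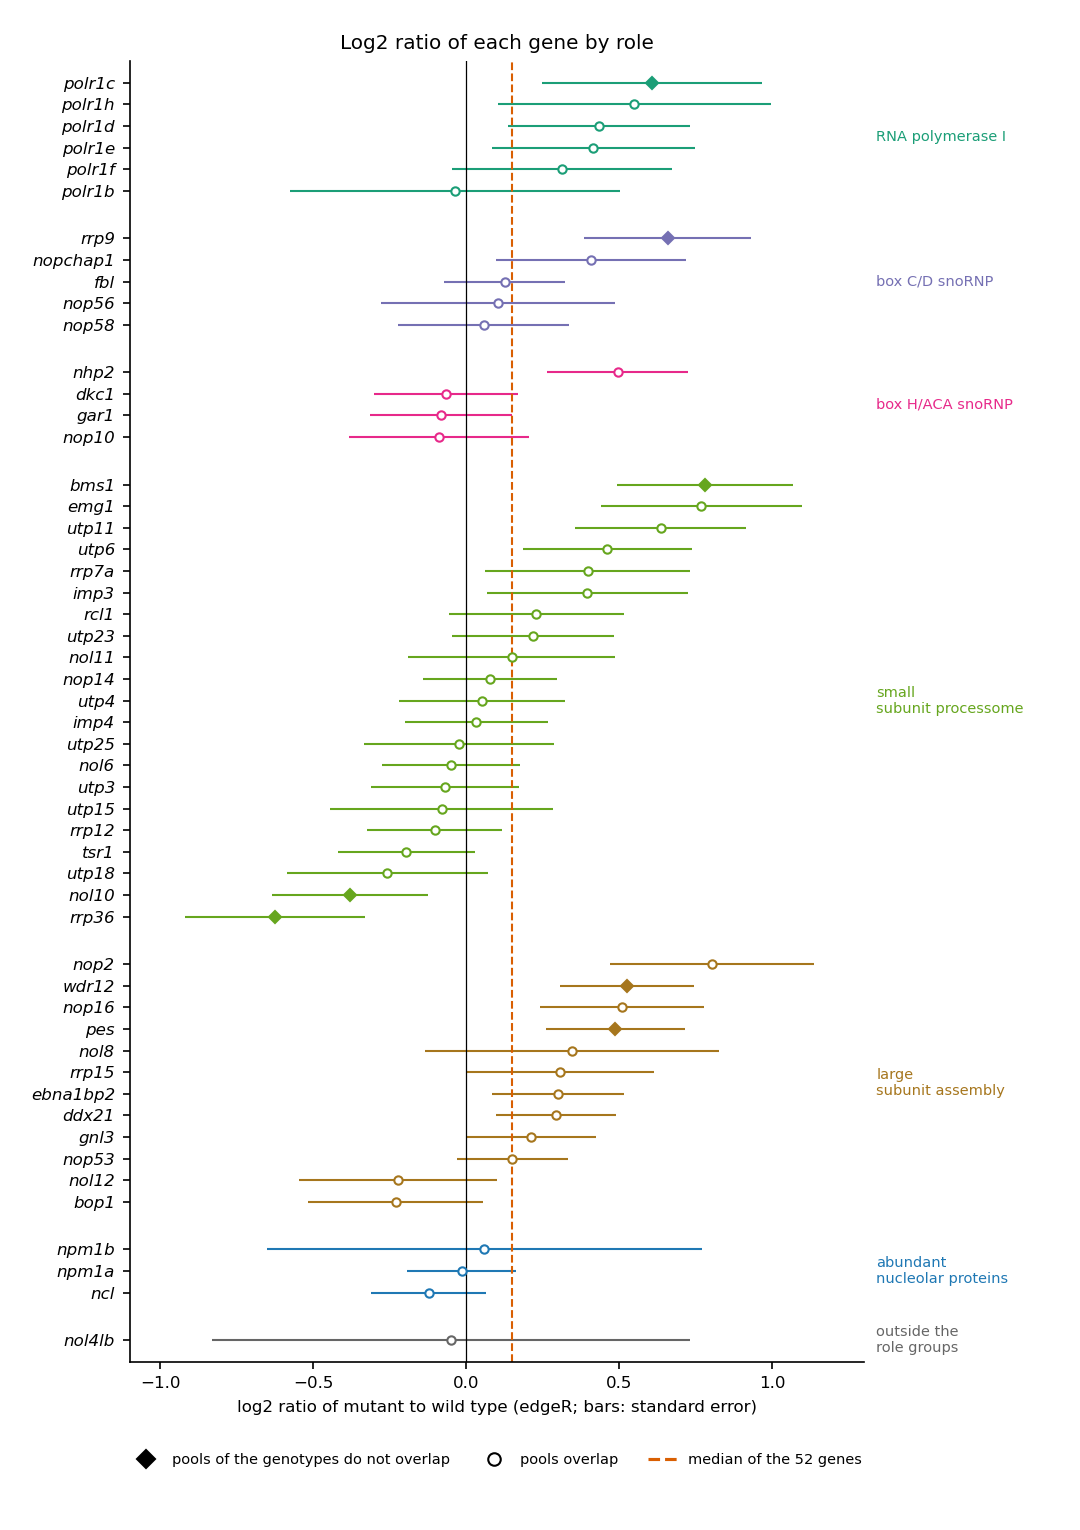
Log2 ratio of mutants against wild types for each of the 52 genes, with bars for the standard error; filled diamonds mark genes whose pools do not overlap between genotypes, and the dashed line marks the median of 0.15. The genes for large subunit assembly and RNA polymerase I lie mostly to the right of 0, and rrp36 lies farthest to the left.

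In box C/D snoRNPs, which guide 2′-O-methylation, fibrillarin (fbl) is the methyltransferase and Nop56 and Nop58 form the scaffold around the guide RNA. The core genes did not separate the genotypes. For fbl the wild-type pools had 99.2, 128 and 117 CPM and the mutant pools 134, 134 and 107 CPM, a log2 ratio of 0.13 (SE 0.20) that was -0.003 when libraries were scaled by totals. For nop58 the values were 211, 199 and 159 CPM in wild types and 162, 280 and 150 CPM in mutants. Mutant pool 2 was the highest and mutant pool 3 the lowest of all pools. The fitted log2 ratio was 0.06 (SE 0.28), turning to -0.25 without mutant pool 2 and to -0.075 under scaling by totals.

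Rrp9 belongs to the U3 snoRNP alone, the box C/D particle that starts the processing of 18S rRNA. The gene rrp9 had 11.7, 16.1 and 14.7 CPM in wild types and 23.1, 17.7 and 26.2 CPM in mutants. All mutant pools lay above all wild-type pools, with means of 14.2 ± 2.25 and 22.3 ± 4.32 CPM (SD, n = 3 each). This is a 1.58-fold difference, with a log2 ratio of 0.66 (SE 0.27, adjusted p = 0.552). The fitted value stayed between 0.52 and 0.84 with each pool left out in turn. The remaining gene of the group, nopchap1, encodes an assembly chaperone and had a log2 ratio of 0.41 (SE 0.31). Outside the chosen symbols, the paralogues snu13a and snu13b encode the protein that first binds the box C/D RNA, and they pointed in opposite directions. The gene snu13b had 72.5, 67.8 and 63.5 CPM in wild types and 84.3, 85.4 and 95.6 CPM in mutants, without overlap, and a log2 ratio of 0.38 (SE 0.18, adjusted p = 0.590). For snu13a wild types had 53.7, 47.5 and 41.7 CPM and mutants 43.96, 34.8 and 32.2 CPM, with overlap, and the log2 ratio was -0.36 (SE 0.22, adjusted p = 0.719). Both were named after their values were seen.

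The scaffold gene nop56 was the only one of the 52 with more than one transcript in the files. NM_001309383, which stands for the gene here, had 464, 439 and 281 CPM in wild types and 332, 681 and 259 CPM in mutants. The genotypes overlapped over almost the whole range, and mutant pool 2 stood 1.47 times above the next pool. Its log2 ratio was 0.10 (SE 0.38), but -0.38 without mutant pool 2 and -0.03 under scaling by totals. NM_201217 had 53.1, 65.5 and 92.9 CPM in wild types and 76.4, 25.4 and 77.3 CPM in mutants. It was lowest in the pool in which NM_001309383 was highest. NM_201217 took 10.3%, 12.99% and 24.8% of the nop56 counts in wild-type pools 1, 2 and 3 and 18.7%, 3.60% and 23.0% in mutant pools 1, 2 and 3. The share varied as much within a genotype as between genotypes. Reads of the sequence that both transcripts hold were divided by estimation, so each transcript's value depends on that division. With the counts summed per gene the log2 ratio was 0.06.

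**Figure D3:**
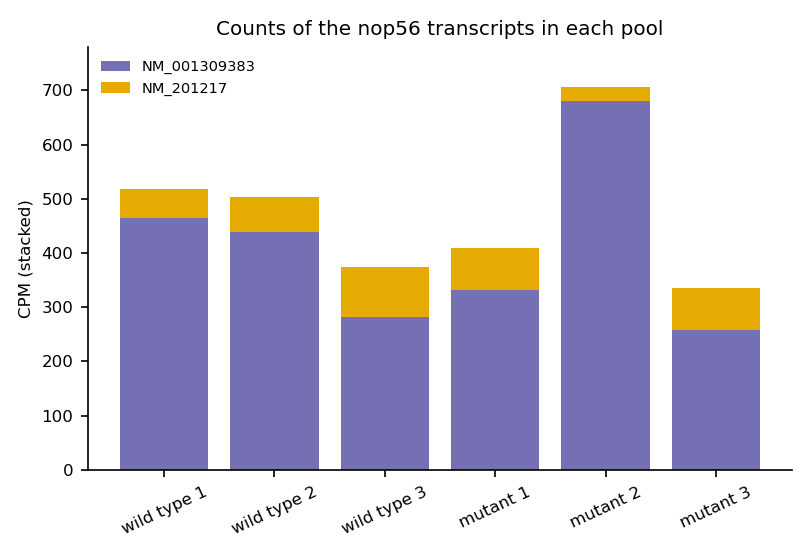
Stacked CPM of the 2 nop56 transcripts in each of the 6 pools, NM_001309383 below and NM_201217 above. Mutant pool 2 has the tallest bar, at 706 CPM, and the smallest share of NM_201217, at 3.60%.

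Box H/ACA snoRNPs guide pseudouridylation, and the same proteins are part of telomerase. Dyskerin (dkc1) is the pseudouridine synthase, and Nop10, Nhp2 and Gar1 are its partners. Of their genes only nhp2 had a log2 ratio above 0, and the other 3 were close together. Differences between these genes were not tested. For nhp2 the wild types had 64.5, 44.9 and 48.9 CPM and the mutants 76.2, 60.5 and 86.3 CPM, with overlap only between wild-type pool 1 and mutant pool 2. The fit gave a log2 ratio of 0.49 (SE 0.23, adjusted p = 0.593).

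For the enzyme gene dkc1 the pools held 164, 192 and 166 CPM in wild types and 153, 217 and 129 CPM in mutants. The mutant pools reached both above and below the wild types. This amounts to a log2 ratio of -0.07 (SE 0.23). Values were 55.5, 74.0 and 56.5 CPM against 60.5, 69.5 and 45.8 CPM for gar1, a log2 ratio of -0.08 (SE 0.23). The gene nop10 had 38.0, 43.3 and 36.4 CPM in wild types and 29.6, 53.3 and 27.8 CPM in mutants, a log2 ratio of -0.09 (SE 0.29). Among mutants, dkc1, gar1 and nop10 were highest in pool 2 and lowest in pool 3, an order seen in 18 of the 52 genes. How often all transcripts had this order was not counted. The signs of dkc1, gar1 and nop10 changed with the pool left out.

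The small subunit processome is the large particle that forms on the nascent precursor around the U3 snoRNP. Of 21 genes in this group 12 were above and 9 below 0, with a median log2 ratio of 0.05, and it held both bms1, the second highest ratio of the 52 genes, and rrp36, the lowest. The gene bms1 encodes the GTPase of the processome. It had 122, 104 and 105 CPM in wild types and 122, 264 and 182 CPM in mutants. Mutant pool 1, at 122.2 CPM, exceeded wild-type pool 1, at 121.7 CPM, by less than 1 CPM, and the other mutant pools lay far above. The means were 110 ± 10.1 CPM and 189 ± 71.2 CPM (SD, n = 3 each), a 1.72-fold difference and a log2 ratio of 0.78 (SE 0.29, adjusted p = 0.522). With each pool left out in turn the value lay between 0.51 and 1.04.

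Bms1 acts with Rcl1, and rcl1 overlapped between genotypes, at 12.1, 19.8 and 15.5 CPM against 20.4, 15.7 and 19.5 CPM. The gene emg1 encodes a methyltransferase that modifies a pseudouridine of the 18S rRNA, known in human from Bowen-Conradi syndrome. It had 25.4, 23.2 and 23.8 CPM in wild types and 42.8, 57.1 and 23.5 CPM in mutants. The wild-type pools were tight, with a standard deviation of 1.12 CPM, and mutant pool 3 fell among them while the other mutant pools stood well above. The fitted log2 ratio was 0.77 (SE 0.33, adjusted p = 0.561).

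Other processome genes with a log2 ratio of 0.3 or more were utp11, utp6, imp3 and rrp7a. For utp11 the wild types had 26.4, 18.7 and 18.3 CPM and the mutants 42.0, 25.8 and 30.7 CPM, a log2 ratio of 0.63 (SE 0.28, adjusted p = 0.575). Only wild-type pool 1 and mutant pool 2 overlapped. The gene utp6, for a protein of the UTP-B subcomplex, had a log2 ratio of 0.46 (SE 0.28), from 24.3 ± 6.13 to 33.5 ± 6.43 CPM (SD, n = 3 each). The gene imp3, whose product joins the U3 RNA to the precursor, had 0.40 (SE 0.33), and its partner imp4 had 0.03 (SE 0.23). None of these genes passed the test.

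In the other direction, rrp36, whose product acts in the early cleavages toward 18S rRNA, had 14.97, 20.2 and 16.1 CPM in wild types and 13.6, 10.7 and 8.96 CPM in mutants. All mutant pools lay below all wild-type pools, with means of 17.1 ± 2.78 and 11.1 ± 2.33 CPM (SD, n = 3 each). Its log2 ratio was -0.63 (SE 0.29, adjusted p = 0.597) and lay between -0.77 and -0.49 with each pool left out in turn. The gene nol10 encodes a WD-repeat protein of the processome. It had 20.6, 18.7 and 21.6 CPM in wild types and 16.3, 12.5 and 17.99 CPM in mutants, also without overlap. The fit gave a log2 ratio of -0.38 (SE 0.25, adjusted p = 0.739). For tsr1, a cytoplasmic GTPase-like factor of late small subunit maturation, it was -0.20 (SE 0.22). The other 13 genes of the group (imp4, nol11, nol6, nop14, rcl1, rrp12, rrp7a, utp15, utp18, utp23, utp25, utp3 and utp4) lay between -0.26 and 0.40, 7 above and 6 below 0, and none separated the genotypes.

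**Figure D4:**
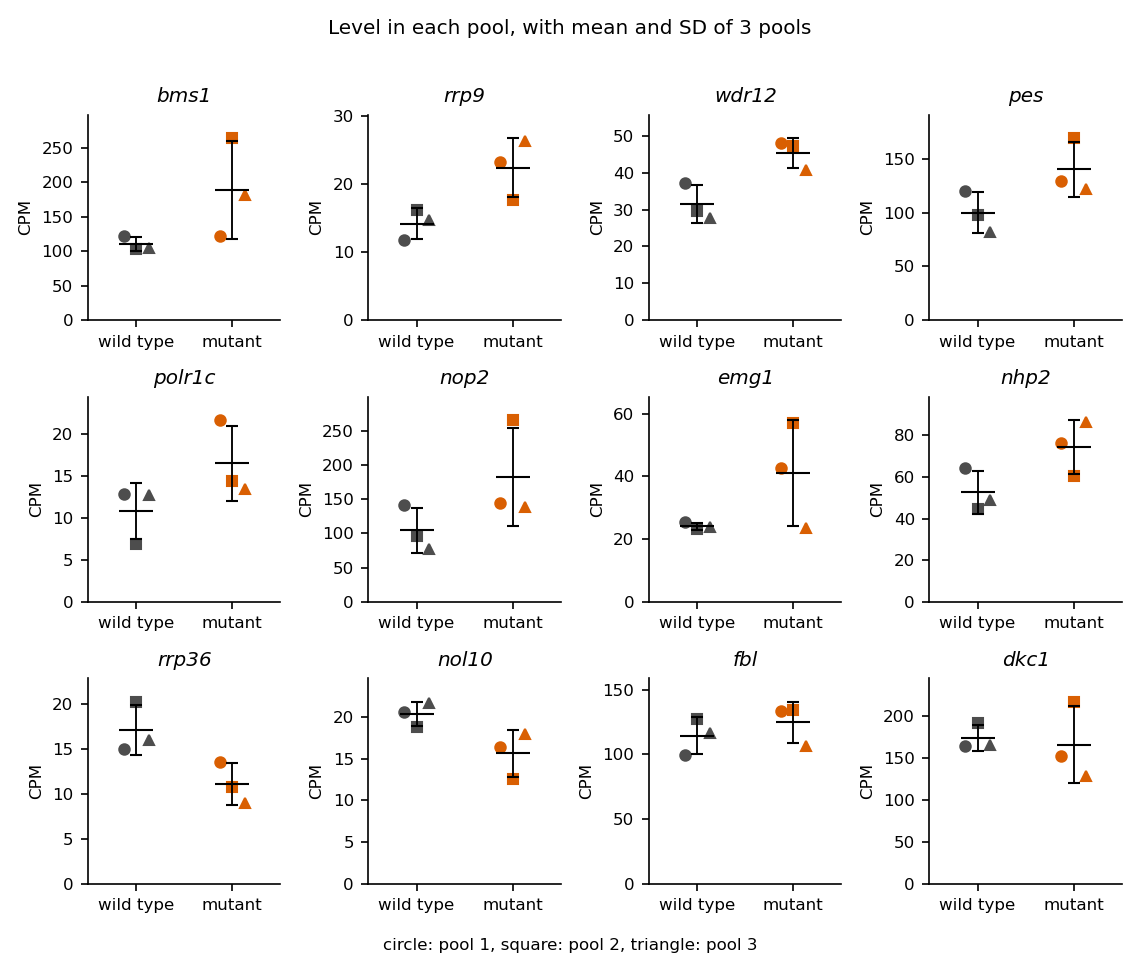
CPM of 12 genes in each pool (circle, pool 1; square, pool 2; triangle, pool 3), with a horizontal bar for the mean and whiskers for the SD of 3 pools. The pools of bms1, rrp9, wdr12, pes, polr1c, rrp36 and nol10 do not overlap between genotypes, while those of nop2, emg1, nhp2, fbl and dkc1 do.

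Among factors of the large subunit, 10 of 12 genes were above 0, with a median log2 ratio of 0.30. Pes, Bop1 and Wdr12 form the PeBoW complex, which is needed for the processing of the precursor to 28S and 5.8S rRNA. The gene wdr12 had 37.3, 29.7 and 27.6 CPM in wild types and 48.1, 47.2 and 40.8 CPM in mutants. All mutant pools lay above all wild-type pools, and the mutant pools were close together. The means were 31.5 ± 5.11 and 45.4 ± 3.96 CPM (SD, n = 3 each), a 1.44-fold difference with a log2 ratio of 0.52 (SE 0.22, adjusted p = 0.555).

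Its partner pes, first known in zebrafish as pescadillo, had 120, 97.6 and 81.9 CPM in wild types and 130, 169 and 122 CPM in mutants. The lowest mutant pool lay just above the highest wild-type pool. This amounts to a log2 ratio of 0.49 (SE 0.23, adjusted p = 0.593). The third gene, bop1, went the other way in its fitted value, with 16.5, 22.6 and 17.0 CPM in wild types and 20.2, 13.6 and 14.0 CPM in mutants. Its pools overlapped and the log2 ratio was -0.23 (SE 0.29), so the genes of the complex did not show a common difference. The genes pes, wdr12 and rrp36 are on a list of changed genes that the study drew from these same libraries, so their separation here is not independent of that list.

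The highest ratio of the 52 genes was that of nop2, which encodes a cytosine methyltransferase of 28S rRNA. It had 141, 96.1 and 77.2 CPM in wild types and 144, 265 and 139 CPM in mutants. Mutant pool 2 stood 1.84 times above the next pool, and mutant pool 3 lay below wild-type pool 1. The fitted log2 ratio was 0.80 (SE 0.33, adjusted p = 0.555), with values from 0.47 to 1.08 when each pool was left out in turn. A similar pattern was seen for nop16, at 69.0, 61.8 and 48.5 CPM in wild types and 71.9, 116 and 67.5 CPM in mutants. Only wild-type pool 1 and mutant pool 3 overlapped, and the log2 ratio was 0.51 (SE 0.27, adjusted p = 0.642).

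The helicase gene ddx21 had 83.2, 114 and 90.4 CPM in wild types and 111, 127 and 115 CPM in mutants, with a log2 ratio of 0.29 (SE 0.20). Ebna1bp2 is an early assembly factor, and its gene had a log2 ratio of 0.30 (SE 0.22). For gnl3, which encodes nucleostemin, a nucleolar GTPase of proliferating cells, it was 0.21 (SE 0.21). Of these, each had overlapping pools. The gene nop53, for a factor that brings the exosome to the precursor of 5.8S rRNA, had 139, 149 and 161 CPM in wild types and 165, 183 and 151 CPM in mutants, a log2 ratio of 0.15 (SE 0.18). The remaining genes were nol8 at 0.35, rrp15 at 0.31 and nol12 at -0.22 on the log2 scale, with standard errors of 0.48, 0.31 and 0.32.

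Nucleolin (ncl) and nucleophosmin are abundant nucleolar proteins with broad roles in precursor folding and nucleolar structure, and their genes did not separate the genotypes. The gene ncl had 410, 439 and 437 CPM in wild types and 392, 450 and 339 CPM in mutants, a log2 ratio of -0.12 (SE 0.19). Zebrafish have a pair of nucleophosmin paralogues. The paralogue npm1a was among the steadiest of the 52 genes, at 158, 159 and 172 CPM in wild types and 156, 181 and 148 CPM in mutants, and its log2 ratio of -0.01 had the smallest standard error, 0.18.

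The paralogue npm1b was at 3.49, 7.97 and 13.7 CPM in wild types and 14.2, 2.28 and 9.70 CPM in mutants. Its pools differed 6.22-fold from the lowest to the highest, and within each genotype as much as between them. The log2 ratio of 0.06 (SE 0.71) carries no direction. The symbol rule also took in nol4lb, which is not known as a ribosome assembly gene. It had 1.01, 2.74 and 5.48 CPM in wild types and 1.49, 4.85 and 2.58 CPM in mutants, with a log2 ratio of -0.05 (SE 0.78).

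Mutant pool 2 was often at one end of the range over these genes. It was the highest of the 6 pools for 22 of the 52 genes and the lowest for 10, while mutant pool 1 was the highest for 15 and the lowest for none. Wild-type pool 1 was the lowest for 13 genes and the highest for 1. These counts were not taken over all transcripts, so they do not show a pattern particular to these genes. For nop2, nop16 and polr1f mutant pool 2 was more than 1.5 times above the next pool, and for npm1b it was more than 1.5 times below. By the same threshold mutant pool 1 was highest for polr1c, and wild-type pool 2 was lowest for polr1c (1.83 times) and polr1h (2.32 times). Mutant pool 2 also had the fewest counts, 40891309. Summed over the 52 genes, wild-type pools held 3122, 3161 and 2881 CPM and mutant pools 3247, 4154 and 2921 CPM. By these scaled sums mutant pool 3 lay within the wild-type range. Before scaling, the 52 genes took 0.318%, 0.323% and 0.315% of counts in wild types and 0.309%, 0.379% and 0.296% in mutants. By these shares mutant pools 1 and 3 lay below all wild types, so their place depends on the scaling. Without mutant pool 2 the median log2 ratio of the 52 genes was 0.18 and the number at an unadjusted p below 0.05 was 7, all higher. Over all transcripts the number also rose then, to 822 higher and 899 lower of 13887, from 566 and 625 of 13553. The median was 0.27 without wild-type pool 3 and 0.08 without wild-type pool 1.

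Other genes of ribosome assembly, taken from a list of 112 genes that leaves out those above, leaned to a like degree. Of 96 tested, 68 were above 0, with a median log2 ratio of 0.12. None was called, 4 were higher and 1 lower at an unadjusted p below 0.05, and for 13 the mutant pools all lay above and for 4 all below the wild types. The 4 higher genes are 4.17% of the list, the same as the background of 4.18% over all transcripts, while the 13 are 13.5% against 7.71% and the 4 below are 4.17% against 9.08%. The 4 higher genes were ruvbl1 and ruvbl2, the paired ATPases that assemble snoRNPs among other complexes, exosc4, a subunit of the RNA exosome, and wdr18, which acts in large subunit maturation. For ruvbl1 the wild-type pools held 70.7, 71.2 and 69.5 CPM and the mutant pools 115, 100.1 and 93.8 CPM. The wild-type pools were nearly equal and all mutant pools lay well above them, with a log2 ratio of 0.55 (SE 0.18, adjusted p = 0.474).

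For ruvbl2 the pools held 60.9, 63.04 and 79.8 CPM in wild types and 133, 96.8 and 89.1 CPM in mutants, a log2 ratio of 0.65 (SE 0.23). The values of exosc4 were 55.1, 46.5 and 34.9 against 69.7, 72.7 and 62.8 CPM, a log2 ratio of 0.59 (SE 0.23). Those of wdr18 were 26.7, 25.4 and 22.2 against 47.1, 44.8 and 28.4 CPM, a log2 ratio of 0.69 (SE 0.26). In each of these genes the mutant pools lay above the wild types. The 1 lower gene was nsa2, a large subunit factor, with 148, 159 and 274 CPM in wild types and 109, 145 and 101 CPM in mutants and a log2 ratio of -0.71 (SE 0.29), which was -0.38 in the weakest case with each pool left out in turn. The 4 genes with all mutant pools below the wild types were nsa2, dhx37, heatr1 and tsr2. The log2 ratio was -0.56 (SE 0.29, adjusted p = 0.640) for dhx37 and -0.34 (SE 0.25, adjusted p = 0.775) for tsr2. The gene dhx37 is also on the study's list of changed genes from these same libraries, so its separation is not independent of that list. For heatr1, a factor that links RNA polymerase I transcription to the processome, wild types had 24.9, 28.0 and 26.7 CPM and mutants 22.8, 19.6 and 20.7 CPM. Its log2 ratio was -0.34 (SE 0.21, adjusted p = 0.728). These genes were named after their values were seen.

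The genes of S phase and proliferation also leaned higher in mutants. Of 23 tested, 21 were above 0, with a median log2 ratio of 0.43, 4 higher at an unadjusted p below 0.05 (17.4% against 4.18% of all transcripts) and 7 with all mutant pools above the wild types (30.4% against 7.71%). None was called. The 2 genes below 0 were mcm2 and mcm7, at -0.11 (SE 0.36) and -0.04 (SE 0.25). Close to them were mki67 at 0.04 (SE 0.42) and pcna at 0.05 (SE 0.32). The summed level of the 23 genes was 1856 to 2002 CPM in wild types and 1977 to 2685 CPM in mutants. Averaged over its genes, this list exceeded the wild-type mean by 0.56, 0.32 and 0.16 on the log2 scale in mutant pools 1, 2 and 3, and the 52 genes exceeded it by 0.26, 0.18 and 0.08. By these means mutant pool 1 was highest and pool 3 lowest for both lists, whereas by summed level mutant pool 2 was highest for the 52 genes and mutant pool 1 for S phase. The other ribosome assembly genes differed from it by 0.20, 0.13 and -0.0016. In RNA pooled from many tissues, more cells of a type and more RNA per cell cannot be told apart. In fins at an earlier stage the study counted fewer nuclei with a mitosis marker in mutants than in wild types. From these same libraries it also reported higher cyclin genes and cdk1, and it proposes that the higher cyclins may be compensatory. Of the S phase list, cdk1 and gins1 are on its list of changed genes. The lean of the S phase list is thus not independent of that list. The part of cell division in the differences above was not tested.

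**Figure D5:**
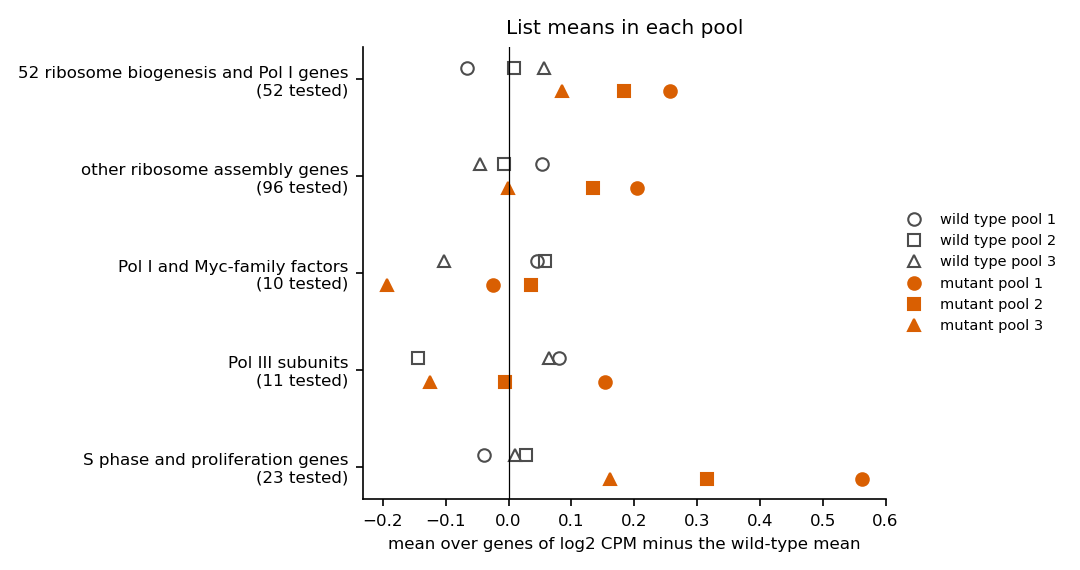
Mean over the genes of each list of the log2 CPM minus the wild-type mean, for each pool (open grey, wild type; filled orange, mutant). The S phase genes lie highest in mutants, at 0.16 to 0.56, the 52 ribosome biogenesis and Pol I genes at 0.08 to 0.26, and the lists for RNA polymerase III and for Pol I and Myc-family factors straddle 0.

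Markers of photoreceptors lay lower in mutants, with no gene called in edgeR and 3 called in DESeq2. All 18 tested photoreceptor genes were below 0, with a median log2 ratio of -1.38, 14 with all mutant pools below the wild types (77.8% against 9.08% of all transcripts), 4 with overlapping pools, and a summed level of 7556 to 11111 CPM in wild types and 1560 to 5019 CPM in mutants. Exocrine pancreas genes were near absent from all pools, and 8 of 17 passed the filter. The genes amy2a, prss59.1 and sycn.2 were at 0 in every pool. The 8 genes summed to 10.3 to 16.5 CPM in wild types and 12.1 to 18.5 CPM in mutants. The largest member in every mutant pool was ptf1a, with a mean of 3.74 CPM in wild types and 10.3 CPM in mutants. Its log2 ratio was 1.47 (SE 0.45). The gene prss1 went the other way, at -1.66 (SE 0.65), with all mutant pools below the wild types. The sums therefore give no direction for the list. Both genes were named after their values were seen. The part of tissue composition in the values of the 52 genes was not tested. By the gene order of the reference, the member nearest to a mutated gene was nol6, 126 tested genes from hnrnpul1l. On the same chromosome imp4, pes and rcl1 lay 409, 590 and 673 tested genes from hnrnpul1l. On the chromosome of hnrnpul1, utp4 and utp15 lay 202 and 254 tested genes away. Whether sequence linked to the mutations plays a part in these genes was not tested.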

How the data were processed

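RNA was polyadenylated RNA from pools of embryos, sequenced from strand-specific paired-end libraries. The authors deposited an estimated count for every RefSeq transcript in each library, made by quantifying the reads without scaling for depth or length. The submitters' processing notes name bcl2fastq 2.20.0.422, kallisto 0.42.4 and the build danRer10, with no roles given, and the RefSeq release is not given in the sources used here. Between 15.8% and 18.3% of values were not whole, and all were rounded. Estimated counts can divide reads between near-identical transcripts.

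For symbols and gene order the RefSeq genes of assembly GRCz12tu were used. A gene with several transcripts was represented by the one with the largest mean count. Counts were tested with edgeR 4.0.16 in R 4.3.3 (filterByExpr, TMM factors from 0.913 to 1.09, quasi-likelihood F-test between genotypes without covariates, Benjamini-Hochberg adjustment over 13553 transcripts). Standard errors are the log2 ratio (log2 fold change) divided by the root of F. List means used log2(CPM + 0.5). The test was also run on simulated counts with 2-fold and 4-fold changes, and the outcome is not reported here.

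Alternatives were RLE factors, scaling by totals, DESeq2 1.42.0, limma-voom (limma 3.58.1), no filter, a minimum mean of 5 CPM, sums per gene, a block for the replicate number, and leaving out each library. Genes named by rule were hnrnpul1, separated members at an unadjusted p below 0.05, the member with the largest CPM in each role, the paralogues npm1a and npm1b, the core snoRNP proteins, all polr1 genes and the members at both ends of the fold changes. The members of lists and the lists themselves (ribosome assembly, Pol I and Myc-family factors, Pol III, S phase, and markers of photoreceptors, exocrine pancreas, liver, skeletal muscle, haemoglobin and neural progenitors) were chosen with earlier results of these data known. Of the members with values in the text, ddx21, gnl3, ebna1bp2, bop1, tsr1, utp6, imp3, imp4, rcl1, nopchap1, nol8, nol10, nol12, rrp15, emg1, pes, utp11 and nop16 fell outside the rule and were named after their values were seen. A comparison of levels per length was planned and not run, since no transcript lengths were used, and no sequences are shown. The design assumed whole counts; the test was kept after rounding.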

Additional observations from a re-analysis of the deposited data

How the results depend on the processing

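With 3 pools a genotype and standard errors of 0.18 to 0.78 on the log2 scale, even the highest ratio of the 52 genes, 0.80 for nop2, was not called at this spread. None of the 52 genes was called under any alternative. Over all transcripts the number called was 0, but 196 with DESeq2 and 0 to 1 with each pool left out in turn. The number of members higher at an unadjusted p below 0.05 was 5, but 1 under scaling by totals and 0 to 7 with each pool left out. Over all transcripts that number was 566, but 331 under scaling by totals and 281 to 822 with each pool left out. The number of members lower was 0, but 1 under scaling by totals. The median log2 ratio of 0.15 became 0.019 under scaling by totals, where the median of all transcripts also fell, so that the distance between both medians was 0.15 in place of 0.16. It ranged from 0.082 to 0.27 with each pool left out. The 5 members with all mutant pools above the wild types became 2 under scaling by totals and 8 to 14 with each pool left out. The 2 below became 2 to 6 with each pool left out. Fewer pools have to be separated then. The shares over all transcripts under these settings are not given here, so these counts cannot be set against a background.

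Of 48 genes followed through the alternatives, 37 kept their sign in all of them. The 48 included hnrnpul1 and genes named outside the rule, and left out some members. Of the members left out, imp4, nol11, nol6, nop14, rrp12, utp15, utp18, utp25, utp3 and utp4 changed sign with the pool left out. The range was -0.056 to 0.17 for imp4 and -0.12 to 0.12 for nol6. The 1 call gained was that of hnrnpul1 with DESeq2. Under scaling by totals the log2 ratio turned to -0.0030 for fbl, -0.033 for nop56, -0.075 for nop58 and -0.066 for npm1b. The value of npm1a turned to 0.0052 with RLE factors and 0.0049 with DESeq2, and that of polr1b to 0.062 with limma-voom. With each pool left out in turn, values ranged from -0.27 to 0.081 for dkc1, -0.19 to 0.065 for gar1, -0.57 to 0.66 for nol4lb, -0.42 to 0.071 for nop10, -0.38 to 0.36 for nop56, -0.25 to 0.22 for nop58, -0.071 to 0.039 for npm1a, -0.44 to 0.61 for npm1b, -0.43 to 0.59 for polr1b and -0.067 to 0.55 for polr1f. Apart from the scaling and the pools left out, the cause was not tested.

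With the replicate number as a block, 0 members were called, 4 were higher at an unadjusted p below 0.05, and the median was 0.16. The sign turned for nol4lb (0.11), npm1b (-0.14) and polr1b (0.026). Whether the numbers pair the pools was not settled. Deviations of same-numbered pools from their group means correlated at -0.16, 0.18 and 0.48. Wild-type pools 2 and 3 correlated best with the mutant pool of their own number, and wild-type pool 1 with mutant pool 2, at 0.33. Deviations from a mean of 3 pools depend on each other, so these correlations cannot decide it.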

Other observations

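Of 8 tested haemoglobin and red cell genes 7 were above 0 in mutants, with a median log2 ratio of 0.86 and summed levels of 753 to 1176 CPM in wild types and 960 to 2293 CPM in mutants. Of 19 tested skeletal muscle genes 15 were above 0, with a median of 0.35 and summed levels of 20142 to 40404 CPM in wild types and 23301 to 51414 CPM in mutants. For the liver list 6 of 14 tested genes were above 0, with a median of -0.09 and summed levels of 578 to 1078 CPM against 329 to 1072 CPM. Of 19 tested neural progenitor genes 13 were above 0, with a median of 0.15, and the sums were 2926 to 3638 CPM in wild types and 2664 to 4619 CPM in mutants, with mutant pool 2 highest, as it was for the sum of the 52 genes. Of the exocrine pancreas genes that passed the filter, 3 of 8 were above 0, with a median of -0.39. No gene of these 5 lists, and none of the photoreceptor or S phase lists, was called in edgeR's test. DESeq2 called arr3a (adjusted p = 0.0063), pde6c (0.017) and gnat2 (0.035) among photoreceptor genes, all lower, and hbbe1.1 (4.3e-05) among haemoglobin, tnnt3a (3.5e-05) among muscle and her4.2 (0.041) among neural progenitor genes, all higher.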
